A study of Mus musculus with 24 samples.

Results

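The fatty acid desaturases and elongases are the enzymes of the endoplasmic reticulum that place double bonds in fatty acids and lengthen their chains. The 10 members were taken by symbol from the deposited count tables: the desaturases Scd1, Scd2, Fads1, Fads2 and Fads3 and the elongases Elovl1, Elovl2, Elovl3, Elovl5 and Elovl6. They are 10 of the 46093 gene symbols in each table, and all 10 passed the filter on low counts, among 14873 genes tested in males and 11830 in females. The RNA came from livers of male and female C57BL/6 mice, in 24 libraries that form 8 groups of 3. Within each sex the groups were Cyp2b-null mice, labelled as lacking the cytochrome P450 genes Cyp2b9, Cyp2b10 and Cyp2b13, on a diet with 60% fat (HFD), wild-type mice (WT) on HFD, Cyp2b-null mice on normal chow (ND) and WT mice on ND. Diets lasted 10 weeks; the age of the mice is not given in the labels. The kits differed by sex, RNeasy Plus Universal and TruSeq Total RNA for males and Trizol and NEB Next Ultra for females, and effects of sex and of kit cannot be told apart.

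Stearoyl-CoA desaturases, the Scd enzymes, put the first double bond into saturated chains and so make the monounsaturated fatty acids that liver packs into triglyceride and cholesteryl esters. The desaturases Fads1 and Fads2 add double bonds nearer the carboxyl end of the essential fatty acids, and together with the elongases Elovl5 and Elovl2 they build the long polyunsaturated fatty acids of membranes. Other elongases lengthen saturated and monounsaturated chains, Elovl6 those that fatty acid synthase releases. In liver several of these genes are known targets of the sterol-regulated factor SREBP-1c, encoded by Srebf1, of the liver X receptors or of the fatty acid receptor PPAR-alpha, encoded by Ppara.

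On chromosome 19 (GRCm38, GENCODE M21) Fads3 lies at 10041569 to 10060110, Fads2 at 10062765 to 10101746 on the opposite strand and Fads1 at 10182888 to 10196877, a cluster that spans 155 kb. The same chromosome holds Scd2 at 44293674 to 44306864, Scd1 at 44394455 to 44407879 and Elovl3 at 46131897 to 46135694. Elovl1 is on chromosome 4, Elovl2 on 13, Elovl5 on 9 and Elovl6 on 3, and all members are annotated as protein coding. Elovl1 overlaps Cdc20 and Elovl3 overlaps Pitx3 on the opposite strand, and Elovl6 overlaps the antisense gene Gm35986. Whether reads were counted by strand is not given in the sources used here, so reads in those overlaps cannot be told apart. Scd1 and Scd2 have close copies beside them, Scd3 and Scd4, so reads they share may have been split or dropped.

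Promoter windows of 300 bases, 250 before the gene start and 50 after it, were found in RefSeq (GRCm38.p6) for 6 of the 10 members, 8 windows in all, since Elovl1 and Elovl2 have a pair each. The gene start is that of the RefSeq entry and can differ from the GENCODE start. For Fads2, on the minus strand, GENCODE starts the gene at 10101746, so most of its window lies inside that gene model. Scd1, Scd2, Fads1 and Elovl3 had no entry. The windows of Fads2 and Elovl2 are shown because these genes had a Pearson r of 0.848 in females (Spearman rho = 0.559). That of Fads3 is shown because its levels were separate between genotypes in ND females, and that of Elovl5 because it held the sole E-box match. Each is written 5′ to 3′ on the gene's strand, and capitals mark matches, on either strand, to a Sp1 box (GGGCGG), an NF-Y box (CCAAT) or an E-box (CACGTG).

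Fads2, minus strand, chr19:10101454-10101753: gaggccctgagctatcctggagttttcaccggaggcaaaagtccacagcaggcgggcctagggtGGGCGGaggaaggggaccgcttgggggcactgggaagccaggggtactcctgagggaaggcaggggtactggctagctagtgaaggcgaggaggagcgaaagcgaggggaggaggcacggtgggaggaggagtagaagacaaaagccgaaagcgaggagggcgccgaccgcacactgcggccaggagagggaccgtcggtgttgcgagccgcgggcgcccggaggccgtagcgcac

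Fads3, plus strand, chr19:10041298-10041597: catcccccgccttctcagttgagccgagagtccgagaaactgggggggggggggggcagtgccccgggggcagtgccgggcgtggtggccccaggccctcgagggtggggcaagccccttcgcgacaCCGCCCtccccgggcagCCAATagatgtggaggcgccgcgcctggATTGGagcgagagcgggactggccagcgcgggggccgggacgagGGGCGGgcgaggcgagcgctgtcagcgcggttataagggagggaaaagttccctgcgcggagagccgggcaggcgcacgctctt

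Elovl2, minus strand, chr13:41220354-41220653: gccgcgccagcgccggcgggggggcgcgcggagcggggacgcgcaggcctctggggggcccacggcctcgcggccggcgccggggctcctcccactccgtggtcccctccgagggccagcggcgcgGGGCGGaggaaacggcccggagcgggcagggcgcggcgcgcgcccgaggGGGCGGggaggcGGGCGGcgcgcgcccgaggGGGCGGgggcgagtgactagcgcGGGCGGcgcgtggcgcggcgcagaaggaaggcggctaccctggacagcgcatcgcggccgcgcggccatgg

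Elovl5, plus strand, chr9:77917115-77917414: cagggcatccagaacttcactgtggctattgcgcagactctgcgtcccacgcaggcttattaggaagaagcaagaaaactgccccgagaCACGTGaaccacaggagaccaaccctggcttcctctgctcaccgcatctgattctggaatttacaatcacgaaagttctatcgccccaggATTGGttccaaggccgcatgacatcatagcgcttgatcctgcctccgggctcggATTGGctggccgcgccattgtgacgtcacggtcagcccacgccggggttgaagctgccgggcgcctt

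The Sp1 box was found in 5 of the 8 windows and the NF-Y box in 3, against 35.7% and 37.4% of 32851 RefSeq promoter windows of the same length. The CACGTG in Elovl5 starts 161 bases before the gene start, and 7.15% of all windows hold this motif. None of the 8 windows held the SREBP site core TCACNCCAC (1.24% of all windows) or direct repeats of the nuclear receptor half-site AGGTCA spaced by 1 base (0.0396%) or 4 bases (0.0152%). In the first Elovl1 window a GGGCGG and a CCAAT match overlap. These matches describe the letters of the windows, not bound sites.

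Levels between genes were compared as CPM, counts scaled to library size with TMM factors, per kb of annotated exon sequence. Scd1 was the highest member in all 8 groups, at 496 ± 56.9 CPM per kb in null HFD females, 835 ± 76.1 in WT HFD, 1354 ± 381 in null ND and 868 ± 29.1 in WT ND females (SD, n = 3 libraries each). Elovl5, Fads1 and Elovl2 came next in females, for example at 191 ± 31.7, 147 ± 7.85 and 146 ± 25.2 CPM per kb in the WT HFD group, with ranges that overlap. Elovl6 and Elovl1 were lower, and Scd2 and Elovl3 were lowest in each female group. In males the order below Scd1 changed with the group. Elovl3 was second in WT ND males at 198 ± 86.7 CPM per kb, where its range overlapped that of Elovl5 (148 ± 38.8), and sixth or seventh in the other male groups, at 24.3 ± 4.72 in null HFD, 34.6 ± 19.0 in WT HFD and 23.0 ± 12.5 in null ND males. Fads3 stood at 4.02 to 10.2 CPM per kb in the female group means and at 0.543 to 1.16 in the male ones.

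**Figure D1:**
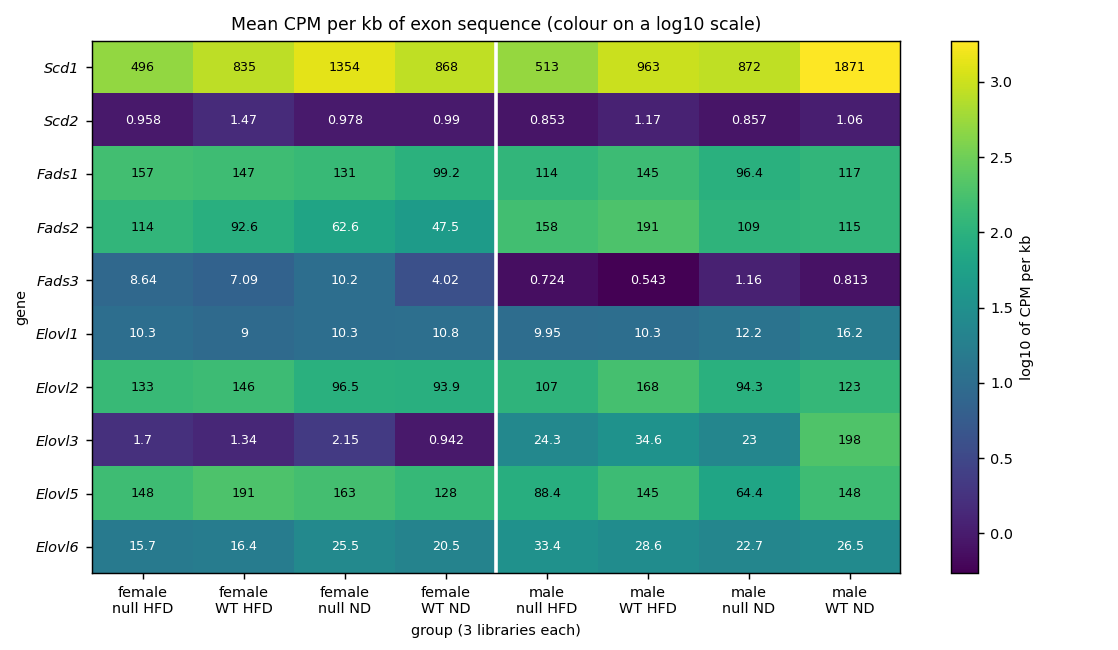
Mean CPM per kb of exon sequence of each member (row of the grid) in each group of 3 libraries (column), with colour on a log10 scale. Scd1 is highest in all 8 groups, and Elovl3 reaches 198 in WT ND males against 23.0 to 34.6 in the other male groups and 0.942 to 2.15 in females.

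Male libraries held 8282510 to 20176000 counts and female libraries 2005120 to 2661840. The 6 hepatocyte markers were detected in every group, and the 5 adipocyte markers summed to at most 7.89 CPM in any library. Counts of the deleted genes followed the titles in females, with Cyp2b13 at 0 counts in all 6 null libraries against 565 to 1138 in WT. In males they did not settle the label, with Cyp2b13 at 7 to 89 counts in null and 23 to 85 in WT libraries, so the male groups are called null as labelled. For 6 female libraries the labels disagree on genotype between title and characteristic, and the title was used. Library 1 of the null ND males stood apart: its mitochondrial share of counts was 32.0%, the other males having at most 7.76%, and its median Spearman correlation with the others was 0.8002. Library 1 of the WT ND females had a mitochondrial share of 13.96%, the other females having at most 8.54%, the lowest female median Spearman correlation (0.883) and the lowest female level of Fads1, Fads2, Elovl2 and Elovl5. Among females, 5 libraries lay on one side and 7 on the other of principal component 1 (29.2% of the variance), with both genotypes and diets on each side. Mitochondrial shares were 5.41% to 13.96% on the side of 5 and 3.85% to 5.56% on the side of 7. The sides were taken from these same libraries, members left out, so a term for them is no independent adjustment. Whether replicate libraries represent separate animals is not stated in the labels, and p-values here reflect only the variation among the libraries. In tissue RNA, fewer cells of a type and less RNA per cell cannot be told apart.

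No member passed the test (edgeR quasi-likelihood, Benjamini-Hochberg adjusted p below 0.05 over all genes tested) in any of the 14 comparisons within a sex. Of the 140 tests on members, 24 had an unadjusted p below 0.05, 12 higher and 12 lower, against 7.35% of all tests in these comparisons, and DESeq2 called 10. The 14 comparisons reuse the same groups, so the tests are not independent. A gene can count several times among the 24, as male Elovl3 and female Scd1 did. Few genes of any kind were called. In females the share of all genes called was 0.127% for null minus WT on ND, 0.0169% on HFD and 0.093% averaged over diets, and 0.0169% for HFD minus ND in WT and 0 in null, averaged over genotypes and for the interaction. In males it was 0.0134% for null minus WT on ND, 0.0202% averaged over diets and 0.0874% for HFD minus ND averaged over genotypes, and 0 in the other 4 comparisons. Values below are therefore given as measured, with estimates as log2 difference ± SE.

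**Figure D2:**
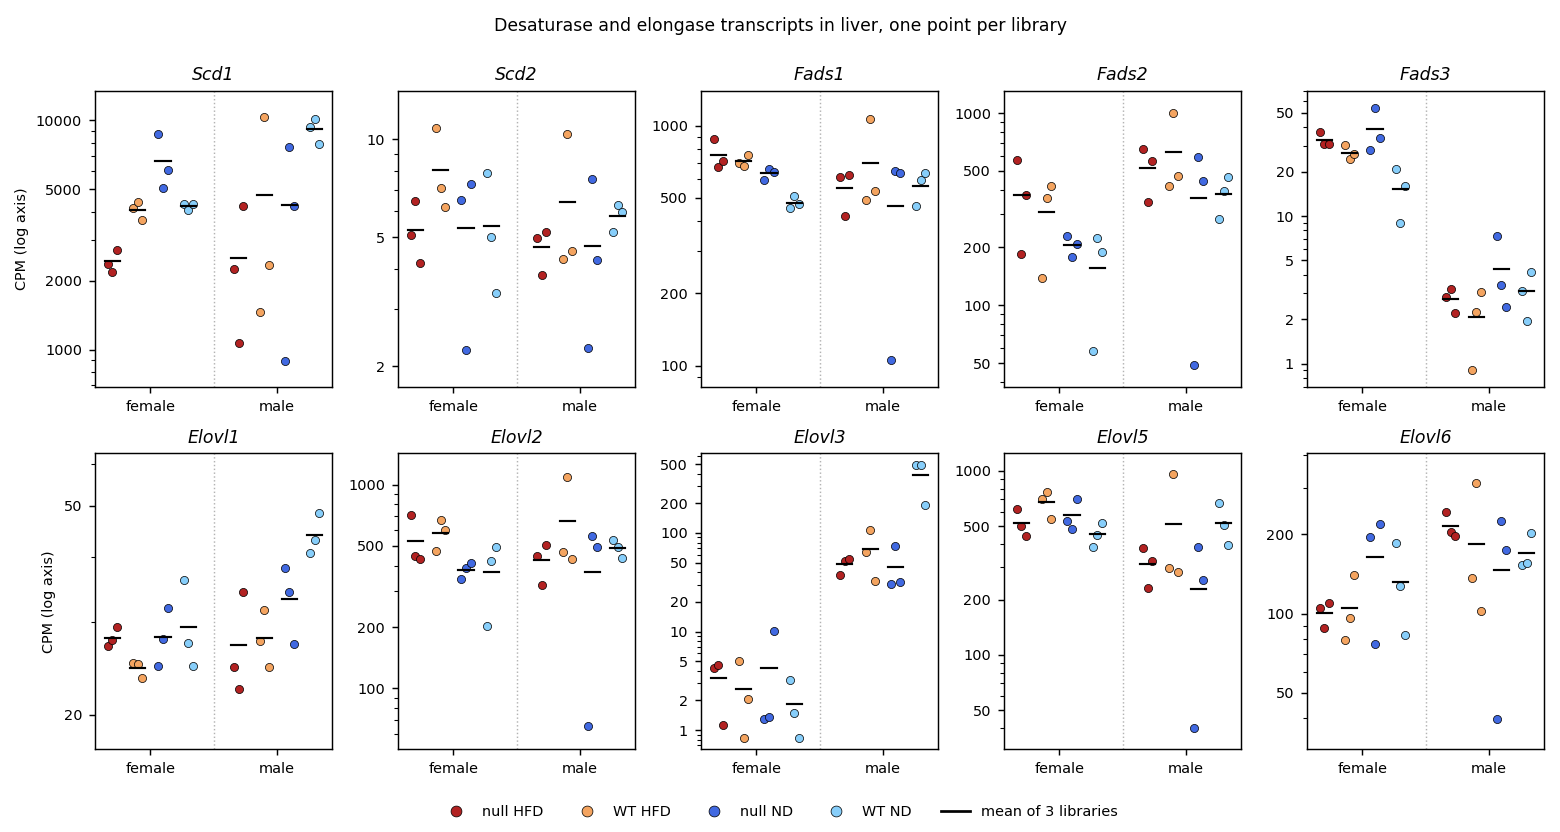
CPM of each member (log axis) in every library, with females at the left and males at the right of each panel, and a bar at the mean of 3 libraries. Female Scd1 runs from 2185 to 2729.7 CPM in the null HFD group, below the 3 other female groups, and male Elovl3 runs from 193 to 494 CPM in WT ND, above the 3 other male groups.

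Scd1, the main stearoyl-CoA desaturase of liver, had 2359, 2185 and 2729.7 CPM in null HFD females, 4155, 4415 and 3680.1 CPM in WT HFD females, 8700.3, 5088 and 6086 CPM in null ND females and 4334, 4083 and 4325 CPM in WT ND females. The null HFD libraries were the lowest 3 of the 12 and the null ND libraries the highest 3, while both WT groups lay between and overlapped each other. Of all genes, 5.05% lay entirely lower on HFD than on ND in null females. The share with a group apart from all others was not counted. HFD minus ND in null females was -1.45 ± 0.22 (95% interval -1.91 to -0.99, a fold of 0.366; edgeR adjusted p = 0.0757), with the smallest p of all 11830 genes. In WT females the same difference was -0.06 ± 0.21 (-0.51 to 0.39). The interaction of genotype and diet, which tests whether those differ, was -1.39 ± 0.30 (edgeR adjusted p = 0.407).

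By genotype, Scd1 stood at a null minus WT difference of 0.64 ± 0.21 on ND (edgeR adjusted p = 0.490) and of -0.75 ± 0.21 on HFD (edgeR adjusted p = 1.0), with libraries that did not overlap on either diet. Of all genes, 5.18% lay entirely above WT on ND and 3.59% entirely below WT on HFD. The estimate of HFD minus ND in null females stayed between -1.61 and -1.21 under all 13 alternatives. Of these 13, 3 called it: its adjusted p was 0.000314 with a term for those sides of the female libraries, 1.81e-07 without the filter on low counts and 2.56e-08 in DESeq2. The others did not, with an edgeR adjusted p of 0.354 with the replicate block and of 0.0634 to 0.496 when a library was left out. Within the side of 5 libraries, null HFD had 2185 CPM against 5088 and 6086 CPM in null ND, and within the side of 7 it had 2359 and 2729.7 CPM against 8700.3 CPM. The 7 Kupffer cell markers, for resident liver macrophages, summed to 324 to 585 CPM in null HFD against 155 to 308 CPM in null ND females, and the 6 hepatocyte markers to 62440 to 88868 against 76924.5 to 115440 CPM. Their part in the Scd1 values was not tested. Of the 5 adipocyte markers, Lep and Retn were at 0 in both groups, and the list summed to at most 0.898 CPM in these 6 libraries.

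In males Scd1 was widely scattered. It had 2245, 1064 and 4219 CPM in null HFD males, 1466, 10324 and 2345 CPM in WT HFD males, 893, 7687 and 4217 CPM in null ND males and 9379, 10164 and 7921 CPM in WT ND males. WT ND libraries lay above null ND libraries (-1.10 ± 0.80 for null minus WT, edgeR adjusted p = 0.456; -0.62 without null ND library 1 and -1.87 without null ND library 2), and the libraries overlapped in the other 3 pairwise comparisons. HFD minus ND was -0.77 ± 0.80 in null and -0.96 ± 0.80 in WT males, and the 95% interval in null males, -2.50 to 0.97, includes the -1.45 of null females. Without WT HFD library 2 the WT value was -2.26 ± 0.81, and without WT HFD library 1 it was -0.53. The null value was -0.01 without null ND library 2, -1.25 without null ND library 1, -0.39 without null HFD library 2 and -1.37 without null HFD library 3. Scd2, the family member of brain and other tissues, was low in all livers, at 2.25 to 10.8 CPM in females and 2.27 to 10.4 CPM in males, and gave no unadjusted p below 0.05.

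Male WT HFD library 2 held the highest male level of 7 members, Scd1, Scd2, Fads1, Fads2, Elovl2, Elovl5 and Elovl6. The divergent null ND library 1 held the lowest male level of 8, the same 7 and Elovl3, and the highest of Fads3. The mitochondrial share was 7.76% in WT HFD library 2.

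Fads1, the delta-5 desaturase of polyunsaturated fatty acid synthesis, had 877, 674 and 716 CPM in null HFD females, 697, 679 and 752 CPM in WT HFD, 593, 659.8 and 643 CPM in null ND and 455, 507 and 469 CPM in WT ND females. All 6 HFD libraries lay above all 6 ND libraries, and among ND females the null libraries lay above WT. HFD libraries lay entirely above ND libraries in this way for 0.101% of all genes tested. The Kupffer cell markers summed to 324 to 585 CPM in null HFD against 155 to 308 CPM in null ND females, and to 271 to 489 CPM in WT HFD against 156 to 315 CPM in WT ND females, and their part in the Fads1 values was not tested. Without WT ND library 1, HFD minus ND in WT was 0.54 for Fads1. Averaged over genotypes, HFD minus ND was 0.42 ± 0.12 (edgeR adjusted p = 0.625; DESeq2 adjusted p = 0.0480). It was 0.57 ± 0.17 in WT and 0.26 ± 0.17 in null females, and the interaction was -0.31 ± 0.24 (adjusted p = 1.0).

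In males Fads1 ran from 421 to 620.2 CPM in null HFD, from 489 to 1071 in WT HFD, from 106 to 650.1 in null ND and from 462 to 634 in WT ND, with all groups overlapping. Its HFD minus ND difference averaged over genotypes was 0.28 ± 0.38 in males. The female minus male difference in that effect was 0.14 ± 0.41, an interval of -0.70 to 0.98.

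Fads2, the delta-6 desaturase that opens the polyunsaturated pathway, had 569, 185 and 375 CPM in null HFD females, 139, 361 and 416 CPM in WT HFD, 231, 179 and 209 CPM in null ND and 57.9, 223 and 189 CPM in WT ND females. The libraries overlapped between all groups. HFD minus ND averaged over genotypes was 0.92 ± 0.38 (edgeR adjusted p = 0.834), and 0.64 ± 0.20 when the sides of the female libraries were a term (edgeR adjusted p = 0.444). In males it ranged from 49.0 to 999 CPM, and the averaged diet difference was 0.63 ± 0.46.

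Fads3, a desaturase of the same cluster that acts on sphingoid bases and some monounsaturated fatty acids, had 36.8, 30.5 and 30.9 CPM in null HFD females and 30.1, 24.2 and 26.4 CPM in WT HFD females, and 27.8, 53.9 and 34.0 CPM in null ND females against 20.8, 8.98 and 16.0 CPM in WT ND females. Null libraries lay above WT libraries on both diets. On ND the difference was 1.33 ± 0.30 (edgeR adjusted p = 0.128; DESeq2 adjusted p = 0.0211), from 18 to 120 counts per library. On HFD it was 0.28 ± 0.29. HFD minus ND in WT females was 0.81 ± 0.30, with non-overlapping libraries (adjusted p = 1.0), and -0.23 ± 0.28 in null females. The interaction of genotype and diet was -1.04 ± 0.41 (edgeR adjusted p = 0.9995). Without null ND library 2, the highest of the 12, null minus WT on ND was 1.01, and without WT ND library 2, the lowest, 1.08. In males Fads3 had 0.903 to 7.36 CPM and overlapped in every comparison.

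For null minus WT on ND, the members were counted by direction in each sex. In females 8 of 10 were higher in null than in WT, where 47.4% of all genes were higher, with a median of 0.37 against -0.02 over all genes. The count was 9 with RLE scaling and in DESeq2, where Scd2 stood at 0.01, and 6 without null ND library 3, with a median of 0.11. Libraries of 3 members (Scd1, Fads1 and Fads3) lay entirely above WT, against 5.18% of all genes. In males 9 of 10 were lower in null than in WT, where 46.3% of all genes were lower, with a median of -0.33 against 0.06. Without the divergent null ND library 1, 5 of 10 were lower, with a median of -0.03: Scd2 was then at 0.02, Fads1 at 0.19, Fads2 at 0.44, Elovl2 at 0.11 and Elovl6 at 0.22, and Fads3 at -0.09. The hepatocyte markers summed to 41257 to 83480 CPM in null ND against 109202 to 140431 CPM in WT ND males, and their part in these counts was not tested. Libraries of 4 members (Scd1, Elovl1, Elovl3 and Elovl5) lay entirely below WT, against 12.5% of all genes. The difference in counts between the sexes was not tested. None of these members was called, and the members are not independent of each other.

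For HFD minus ND in WT females, 3 members (Fads1, Fads3 and Elovl5) lay entirely above ND, against 3.89% of all genes, and 4 had an unadjusted p below 0.05, against 1.67% higher among all genes. This comparison shares the WT ND libraries with null minus WT on ND. In null females on the same contrast, Fads1 and Elovl2 lay above (6.18% of all genes) and Scd1 below (5.05%). On HFD, Fads3 and Elovl1 lay above in null females (3.38%) and Scd1 below (3.59%). In males no member was separate on HFD between genotypes, where 8.27% of all genes were, or between diets in null males, where 12.1% were; in WT males Elovl1 and Elovl3 lay below on HFD (10.1%).

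**Figure D3:**
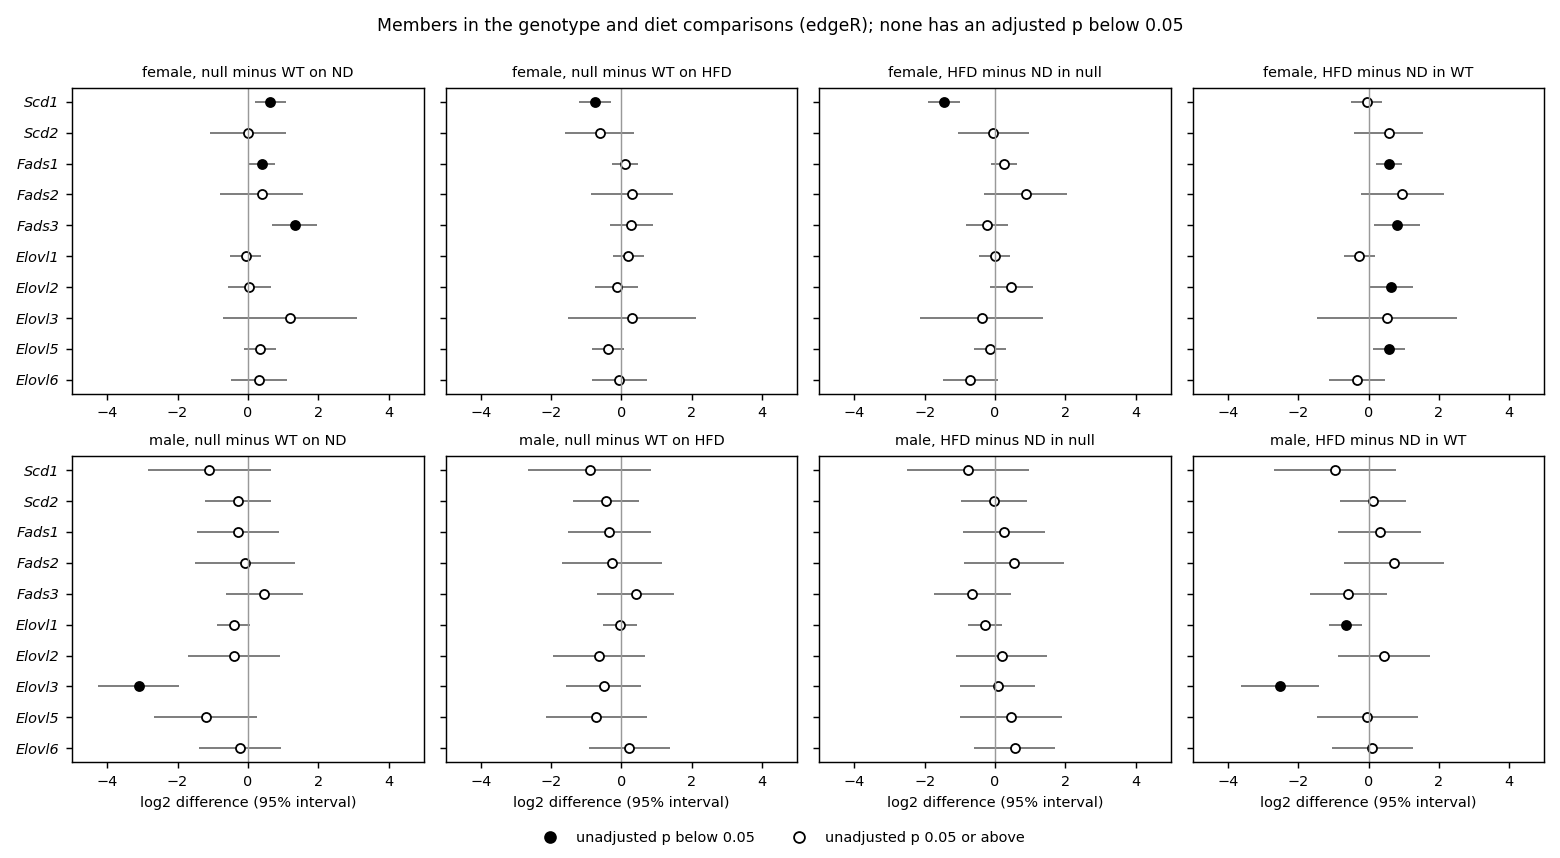
Log2 difference of each member with its 95% interval in the genotype and diet comparisons, females above and males below; filled points have an unadjusted p below 0.05. Scd1 sits at 0.64 on ND and -0.75 on HFD in females, and Elovl3 at -3.10 and -2.52 in the male comparisons that share the WT ND group.

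Elovl3, an elongase of saturated and monounsaturated chains whose liver expression in mice is known to be higher in males, had 37.3, 52.3 and 54.5 CPM in null HFD males, 64.6, 107 and 32.7 CPM in WT HFD, 30.5, 73.9 and 31.6 CPM in null ND and 494, 485 and 193 CPM in WT ND males. All 3 WT ND libraries lay above the other 9, which overlapped each other. Of all genes, 12.5% lay entirely below WT ND in null ND and 10.1% in WT HFD males. For Elovl3, null minus WT on ND was -3.10 ± 0.53 (95% interval -4.25 to -1.96, a fold of 0.116, edgeR adjusted p = 0.122), the seventh smallest p in males. HFD minus ND in WT was -2.52 ± 0.51 (adjusted p = 0.255), and in null males 0.08 ± 0.49. Both comparisons share the WT ND libraries. The interaction was 2.60 ± 0.70 (edgeR adjusted p = 0.891).

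The Elovl3 difference on ND had estimates of -3.69 to -2.89 under all 12 alternatives. DESeq2 (adjusted p = 1.98e-06), the fit with no filter (0.0110) and the fit without null ND library 2 (0.0333) called it, and without the divergent null ND library 1 it was -2.89 ± 0.61 (adjusted p = 0.0855). The other alternatives did not call it, and their edgeR adjusted p reached 0.502. The hepatocyte markers summed to 41257 to 83480 CPM in null ND against 109202 to 140431 CPM in WT ND males, and to 86361 to 104554 CPM in WT HFD males. They were thus highest in the group where Elovl3 was highest, and their part in its values was not tested. In females Elovl3 had 2 to 25 counts per library, 0.833 to 10.1 CPM, and its groups overlapped.

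**Figure D4:**
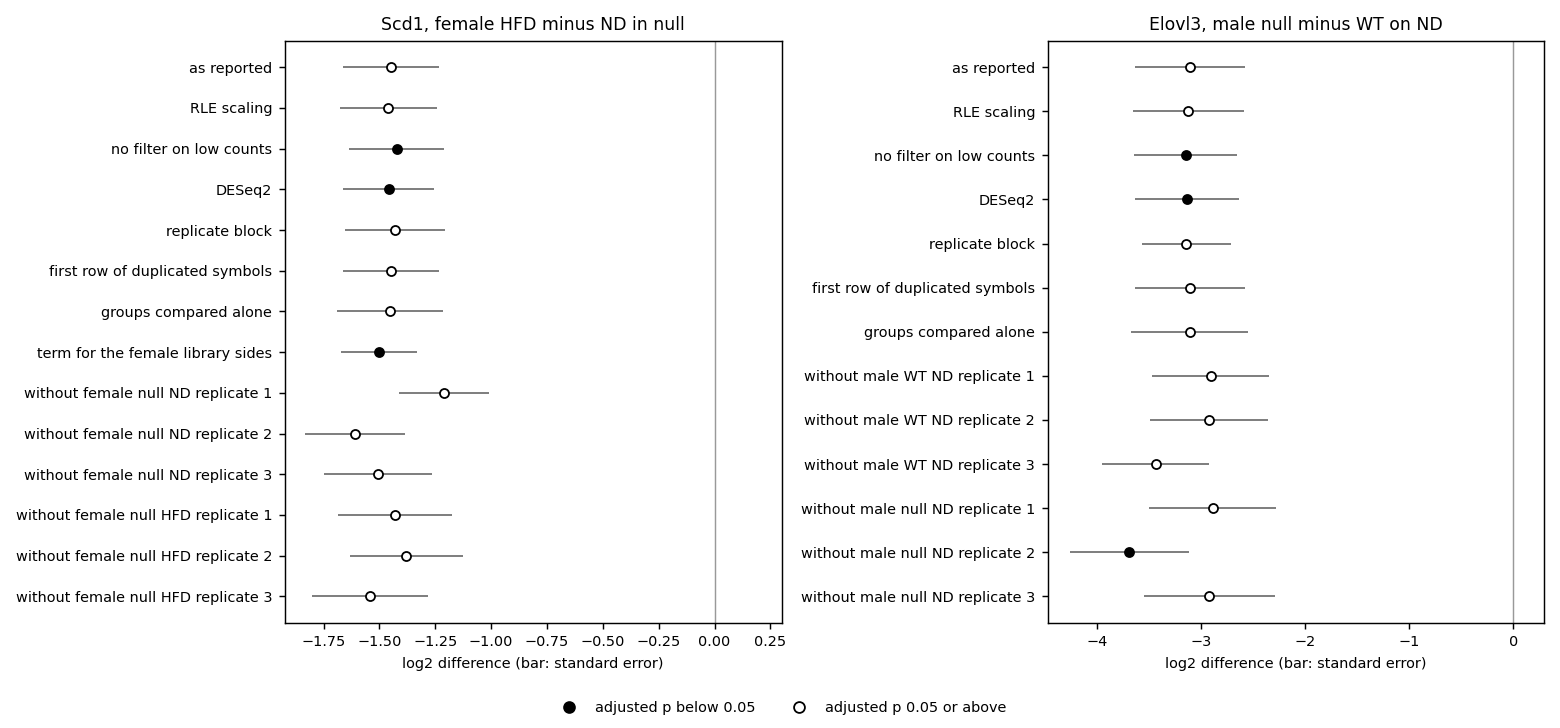
Estimates of the log2 difference with standard errors under each alternative, for Scd1 in null females (HFD minus ND, left) and Elovl3 in males on ND (null minus WT, right); filled points have an adjusted p below 0.05. Scd1 runs from -1.61 to -1.21 and Elovl3 from -3.69 to -2.89, all below 0.

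Elovl1, which lengthens very long saturated chains, had 24.7, 22.4 and 34.3 CPM in null HFD males, 27.6, 31.7 and 24.7 CPM in WT HFD, 38.0, 34.3 and 27.3 CPM in null ND and 40.7, 43.0 and 48.4 CPM in WT ND males. As with Elovl3, the WT ND libraries were the highest 3 of the 12. Of all genes, 12.5% lay entirely below WT ND in null ND and 10.1% in WT HFD males. HFD minus ND was -0.65 ± 0.22 in WT males (edgeR adjusted p = 0.594) and -0.47 ± 0.16 averaged over genotypes. In females it stayed between 23.5 and 36.1 CPM, and the averaged diet difference was -0.13 ± 0.14.

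Elovl2, which elongates polyunsaturated chains on the way to docosahexaenoic acid, had 708, 445 and 432 CPM in null HFD females, 475, 673 and 596 CPM in WT HFD, 346, 392 and 410.0 CPM in null ND and 201, 420.2 and 495 CPM in WT ND females. Null HFD libraries lay above null ND libraries, while the WT groups overlapped. HFD minus ND averaged over genotypes was 0.55 ± 0.21 (edgeR adjusted p = 0.765). In WT females alone it was 0.64 ± 0.29 for Elovl2, and 0.34 ± 0.24 without WT ND library 1. Elovl5, its partner for shorter polyunsaturated chains, had 618, 499.6 and 443 CPM in null HFD females, 706, 766 and 549.9 CPM in WT HFD, 534, 485 and 702 CPM in null ND and 384, 448 and 524 CPM in WT ND females. HFD was above ND in every WT library, at 0.58 ± 0.22 (adjusted p = 1.0), and the null groups overlapped at -0.14 ± 0.21; the interaction was -0.72 ± 0.30 (edgeR adjusted p = 1.0).

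In males Elovl5 had 379, 229.5 and 326 CPM in null HFD, 297, 957 and 280.4 CPM in WT HFD, 40.0, 387 and 254 CPM in null ND and 667, 506 and 396 CPM in WT ND libraries. Null ND lay below WT ND (-1.20 ± 0.67, adjusted p = 0.339), with its lowest value in the divergent library; without that library the difference was -0.71 ± 0.50. Male Elovl2 ran from 65.4 to 1094 CPM and overlapped in every comparison.

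Elovl6, the elongase that turns palmitate-length into stearate-length chains, had 105, 88.4 and 109 CPM in null HFD females, 79.2, 96.2 and 141 CPM in WT HFD, 196, 76.4 and 219 CPM in null ND and 185, 127 and 83.1 CPM in WT ND females. All groups overlapped. HFD minus ND averaged over genotypes was -0.51 ± 0.26 in females (edgeR adjusted p = 0.922) and 0.33 ± 0.38 in males, and the female minus male difference was -0.84 ± 0.47 (adjusted p = 0.938).

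Across the 12 female libraries, the gene most like Fads1 in log2 CPM, among expressed named genes, was Ppara (Pearson r = 0.938, Spearman rho = 0.874). The gene most like Elovl6 was Fasn, which encodes fatty acid synthase (r = 0.921, rho = 0.937). Without the 2 libraries farthest from the median of the x gene, r was 0.887 for Ppara and Fads1 and 0.840 for Fasn and Elovl6, and within groups it was 0.838 and 0.926. In the 11 males without the divergent library, r was 0.005 for Ppara and Fads1 and 0.760 for Fasn and Elovl6, the second of which was 0.268 without its 2 extreme libraries. Within groups these male values were -0.574 for Ppara and Fads1 and 0.899 for Fasn and Elovl6. Fads2 and Elovl2 had r = 0.848 in females (rho = 0.559), and 0.499 without the 2 extreme libraries. All these values describe libraries that share their groups and scaling. The female pairs of Fads1 with Ppara and of Elovl6 with Fasn were picked as the highest of many genes. Fads2 and Elovl2 were not the genes most like each other.

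**Figure D5:**
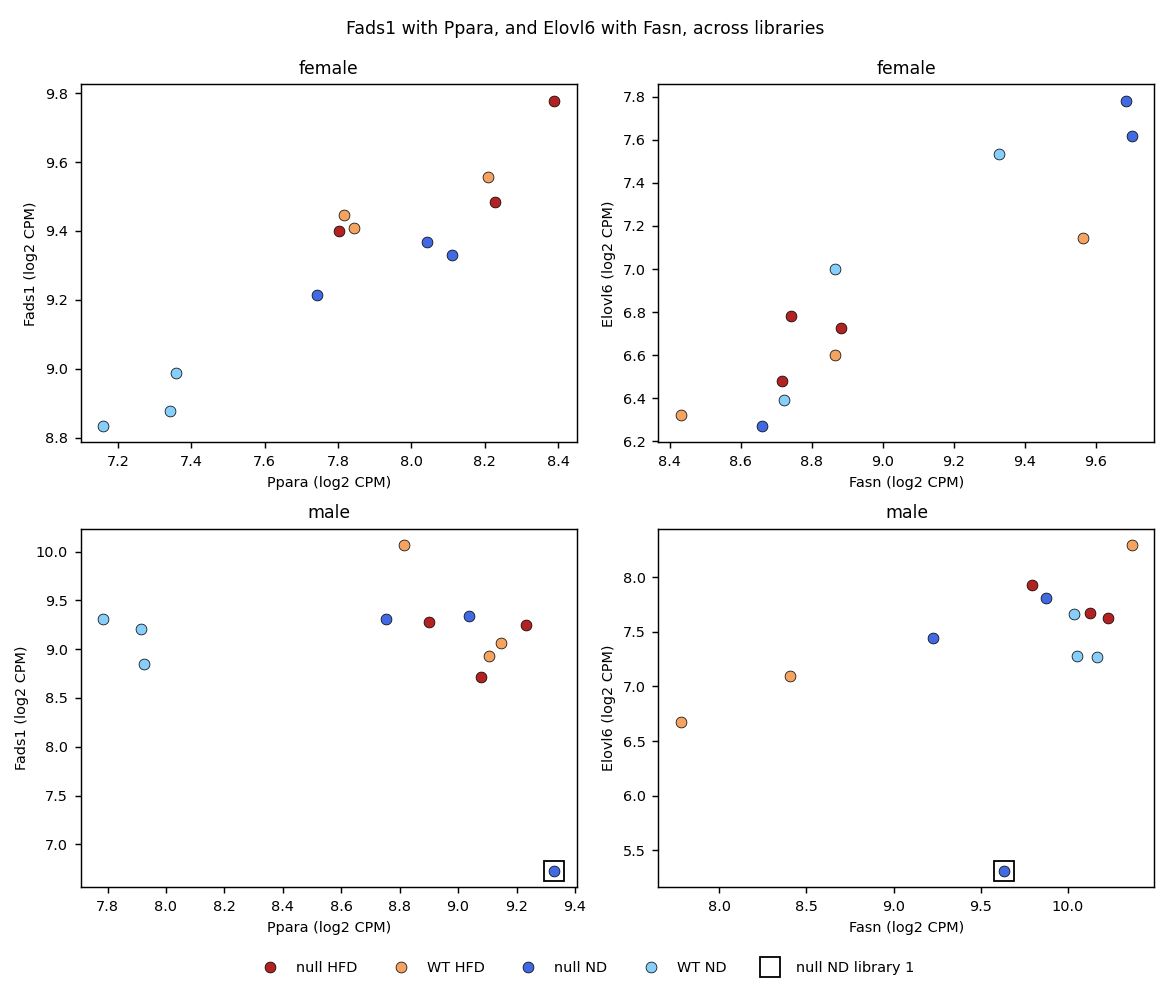
Log2 CPM of Fads1 against Ppara (left) and of Elovl6 against Fasn (right), one point per library, females above and males below, with a square on the divergent null ND library 1. Female points lie along a line in both panels (r = 0.938 and 0.921), and WT ND females are lowest for both Ppara and Fads1.

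Among 11 males Fads1 and Fads2 had r = 0.885, and Elovl1 and Elovl3 had r = 0.824, but 0.344 within groups. Scd3, the close copy of Scd1, had r = 0.957 with it at up to 10.0 CPM, and reads of both genes may not be separable. Over all 12 males Fads1 and Fads2 had r = 0.978, and 0.752 without the 2 extreme libraries.

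Of the other genes of the pathway, in lists of 7, 9, 12, 10 and 15, none was called by edgeR in any comparison within a sex. Ppara, the receptor gene above, was low in the WT ND group of each sex. It had 335, 222 and 299 CPM in null HFD females, 225, 229 and 295 CPM in WT HFD, 213, 263 and 275 CPM in null ND and 142, 163 and 161 CPM in WT ND females. In males it had 602, 540.0 and 478 CPM in null HFD, 551, 450.1 and 567 CPM in WT HFD, 643, 525 and 431 CPM in null ND and 243, 241 and 221 CPM in WT ND. The WT ND libraries were the lowest 3 of 12 in both sexes. Over all genes, null ND lay entirely above WT ND for 5.18% in females and 10.3% in males. WT HFD lay entirely above WT ND for 3.89% in females and 12.9% in males. For Ppara, null minus WT on ND was 0.69 ± 0.20 in females (edgeR adjusted p = 0.378) and 1.18 ± 0.24 in males (adjusted p = 0.165). Its HFD minus ND difference in WT was 0.68 ± 0.20 in females (adjusted p = 1.0) and 1.15 ± 0.24 in males (adjusted p = 0.255). DESeq2 called the male values.

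Srebf1, the gene of SREBP-1c, had 385, 345 and 329 CPM in null HFD against 244, 218 and 207 CPM in null ND females, a group in which Scd1 stood lower on HFD. That difference in Srebf1 was 0.66 ± 0.24 (edgeR adjusted p = 0.963). Me1, which encodes malic enzyme, a source of the NADPH that fatty acid synthesis uses, had the second smallest p in the same contrast, after Scd1. It had 84.1, 97.6 and 97.7 CPM in null HFD against 166, 191 and 157 CPM in null ND females (-0.88 ± 0.17, edgeR adjusted p = 0.683; DESeq2 adjusted p = 0.000773), and 109, 106 and 109.6 CPM in WT HFD against 119, 101 and 113 CPM in WT ND females. The Me1 interaction was -0.84 ± 0.24 (adjusted p = 1.0).

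In the list of de novo fatty acid synthesis, 7 of the 9 tested genes were lower on HFD in null females, as 48.7% of all genes were. Their median was -0.56 against 0.01 over all genes, and 2 had an unadjusted p below 0.05, both lower, against 2.44% of all genes. In WT females 4 of the 9 were higher and 5 lower. In males on ND, 7 of the 9 were lower in null than in WT, as 46.3% of all genes were. Their median was -0.69 against 0.06 over all genes, and the list was not counted without the divergent null ND library 1. Of the 9 elongation cycle and electron transfer partners, 7 were higher in null than in WT females on each diet, with medians of 0.24 on ND and 0.06 on HFD. Over all genes 47.4% were higher on ND and 49.1% on HFD. Hacd3, a dehydratase of the elongation cycle, had 214, 204 and 212 CPM in null HFD against 156, 145 and 175 CPM in WT HFD females, and 159.8, 194 and 197 CPM in null ND against 129, 118 and 129 CPM in WT ND females. Null libraries lay above WT on both diets, as 5.18% of all genes did on ND and 3.38% on HFD. The averaged difference for Hacd3 was 0.48 ± 0.12 (edgeR adjusted p = 0.250; DESeq2 adjusted p = 0.00607).

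Of the 12 regulators, Insig2, whose protein retains SREBPs in the endoplasmic reticulum, had 86.1, 78.2 and 61.1 CPM in null HFD against 102, 133 and 140.1 CPM in WT HFD females, and 89.4, 93.4 and 74.8 CPM in null ND against 125, 146 and 116 CPM in WT ND females. All 6 null libraries lay below all 6 WT libraries, as 0.152% of all genes did. The averaged difference was -0.66 ± 0.14 (edgeR adjusted p = 0.150; DESeq2 adjusted p = 0.00827). In the list of long-chain acyl-CoA use, 13 of 15 genes were higher in null than in WT females on ND, as 47.4% of all genes were. Their median was 0.22, and 4 had an unadjusted p below 0.05, all higher, against 2.98% of all genes. Of the 7 other desaturases and elongases, 3 were tested in each sex, and none had an unadjusted p below 0.05. Elovl4 and Scd4 were at 0.467 CPM or below in every group mean.

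The female minus male difference in each effect was tested for the members in 6 comparisons over all 24 libraries. These comparisons reuse the same groups, so the tests are not independent. None of the 60 tests was called by edgeR (adjusted p below 0.05 over 15043 genes), 6 had an unadjusted p below 0.05, all with the female effect more positive, against 5.93% of all tests, and DESeq2 called 1. Over all genes 0.0332% were called for null minus WT on ND, 0.0133% on HFD and 0.0199% averaged over diets, and 0.00665% for HFD minus ND in WT and averaged over genotypes and 0 in null. For null minus WT on ND, Elovl3 had the largest difference, 4.34 ± 1.04 (edgeR adjusted p = 0.202; DESeq2 adjusted p = 0.0150), with 1.21 ± 0.89 in females, where counts were 2 to 25, and -3.10 ± 0.53 in males. Without female null ND library 3, which held 10.1 CPM, it was 2.67, and without male null ND library 2 it was 4.76 (adjusted p = 0.0382). Elovl5 had 1.56 ± 0.72 (adjusted p = 0.417) and Scd1 1.75 ± 0.85 (adjusted p = 0.431) in the same comparison. Since kit and sex cannot be told apart, these values compare the tables and not the sexes alone.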

How the data were processed

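Liver RNA-seq libraries were analysed from the authors' 2 deposited tables of read counts per gene, 1 per sex, with the groups taken from the labels. The submitters' processing notes name FastQC, Trimmomatic, GSNAP, Subread, edgeR and GRCm38.p5; the sources used here do not give their order, settings or strand mode. Repeated symbols were summed (1806 in the male table, 2 in the female table). Genes passing filterByExpr were fitted per table with TMM scaling, robust dispersions and the quasi-likelihood test of edgeR 4.0.16 (limma 3.58.1, R 4.3.3), over all 4 groups of a sex, with Benjamini-Hochberg adjustment over all genes tested; differences between the sexes used 1 fit of 15043 genes. DESeq2 1.42.0, RLE scaling, no filter, the first entry of repeated symbols, the 2 groups alone, a replicate block, a term for the female library sides and leaving out each library were the alternatives. The fit was also run on simulated counts with planted differences. Those counts held no divergent library and no library sides, unlike the data, and the outcome is not used here. Replicates of a group differed by more than sampling noise (chi-square per degree of freedom of at least 5.56). WT HFD with WT ND was the one pair of groups in which all 3 same-numbered pairs of libraries had correlated deviations above 0.1 (0.139 to 0.564 in females and 0.110 to 0.127 in males); single pairs elsewhere reached 0.367. All 10 members are named; of the pathway lists, the called genes or else the gene with the smallest p per list and comparison. The genes most like a member have the highest Pearson r of log2 CPM (prior count 2) among named genes with a mean of at least 1. The members and lists were chosen with earlier results of these data known. The result for 1 gene of the pathway lists is not reported here.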

Additional observations from a re-analysis of the deposited data

Results flagged for a closer look

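In females, the null minus WT difference of Scd1 ran in opposite directions on the diets: all 3 null libraries lay below all 3 WT libraries on HFD and above them on ND. Of all genes, 3.59% lay below in this way on HFD and 5.18% above on ND. For Scd1 the difference between HFD and ND was -1.39 ± 0.30 on the log2 scale (edgeR adjusted p = 0.407), which did not pass the test over all genes. On ND, all 3 null libraries lay above WT for Scd1 in females and all 3 below WT in males, where 12.5% of all genes lay below. The male difference was -1.10 ± 0.80, and -0.62 without the divergent null ND library 1. The female minus male difference was 1.75 ± 0.85 (edgeR adjusted p = 0.431), which did not pass either.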

How the results depend on the processing

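The count of members called by edgeR was 0 in every comparison, also under the replicate block, RLE scaling, the first entry of repeated symbols and the groups compared alone. Without the filter on low counts it was 1 in male null minus WT on ND and averaged (Elovl3), in female null minus WT on ND and averaged (Fads3), in female HFD minus ND in null, its average and the interaction (Scd1), and in 3 female minus male differences. DESeq2 called 1 in male null minus WT on ND and averaged, in male HFD minus ND in WT and averaged, in female null minus WT on ND, in female HFD minus ND in WT and in null, in the female interaction and in the female minus male difference on ND, and 2 in female HFD minus ND averaged (Fads1, Scd1). With the term for the library sides 1 was called, Scd1, in female HFD minus ND in null, averaged and in the interaction. Leaving out a library gave 0 to 1, the 1 being Elovl3 without male null ND library 2. The cause was not tested. Of 2045 alternative values for the 140 member comparisons within a sex, 140 changed sign, in 60 of the 140 comparisons, none of them with a p below 0.05. Calls over all genes varied more: male null minus WT on ND had 2 with edgeR, 35 without the filter and 369 with DESeq2, and female null minus WT on ND had 15, 121 and 70. Scd2 and Elovl3 in females rest on at most 28 counts a library, which limits their precision.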
